A study of Caenorhabditis elegans with 33 samples.

Results

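The lysozyme and antimicrobial peptide genes of the nematode Caenorhabditis elegans were followed through 4 generations of chronic gamma irradiation. They were chosen by name: every gene identifier in the count files whose WormBase symbol is fip, fipr, cnc, spp, lys, ilys or abf followed by a number, together with nlp-27 to nlp-34. This rule found 107 of 46778 identifiers, namely 10 lys, 6 ilys, 30 spp, 6 abf, 7 fip, 29 fipr, 11 cnc and 8 nlp genes. The rule used the symbols and no measured value.

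All worms were of the wild-type N2 strain, grown at 19 °C on Escherichia coli OP50, and total RNA was sequenced from whole animals whose stage the labels give both as L4 and as young adult. Exposed worms of generations F0, F1, F2 and F3 were irradiated in each generation at 50 mGy/h for 65 h, from the embryo onwards. Recovery worms of F1, F2 and F3 came from F0 worms irradiated in the same way and were then kept without irradiation for 1, 2 and 3 generations. Control worms of F0, F1, F2 and F3 were kept without irradiation throughout, which gave 11 groups of 3 libraries each. The series is titled as a study of how irradiation over generations affects fertility.

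Worms feed on bacteria and meet pathogens through the gut and the cuticle, and they answer them with secreted enzymes and peptides rather than with mobile immune cells. Lysozymes cut the peptidoglycan of bacterial walls, saposin-like caenopores open bacterial membranes, and defensin-like, caenacin and neuropeptide-like peptides act on bacteria and fungi, the last of these mainly from the epidermis. Transcription of these genes is known to depend on p38 mitogen-activated protein kinase, DBL-1 (transforming growth factor beta) and insulin signalling, and it also changes with larval stage and moulting.

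The libraries held between 27698760 and 60808541 counts, with a median of 37254864. Replicate 3 of the F3 recovery group and replicate 3 of the F3 controls stood apart in the number of genes with a count. There were 18240 and 19610 such genes, against at least 20503 in each of the other 31 libraries. Replicates within a group differed by more than sampling noise in all 33 pairs, with a chi-square per degree of freedom of at least 8.69. By this measure the largest differences lay in other libraries, at 178 and 177 for F3 exposed replicate 1 against replicates 2 and 3. The pairs of F2 controls had 142, 148 and 86.2, and F3 control replicate 2 had 111 and 128 against replicates 1 and 3. The design text calls them biological replicates but do not say that they were irradiated separately, so the p-values measure the spread between these libraries. Of 10 intestinal marker genes listed, 9 were in the files and had counts in every group, as did 8 of 8 epidermal and 8 of 8 pharyngeal markers. In whole worms, fewer cells of a type and less RNA per cell cannot be told apart, and this holds for every result that follows.

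A filter on low counts kept 17627 genes for testing, among them 89 of the 107 members: 9 lys, 4 ilys, 25 spp, 5 abf, 5 fip, 25 fipr, 8 cnc and 8 nlp genes. The 18 others were lys-9, ilys-1, ilys-6, spp-11, spp-21, spp-26, spp-29, spp-30, abf-3, fip-1, fip-4, fipr-12, fipr-14, fipr-15, fipr-25, cnc-1, cnc-5 and cnc-9. None of these reached more than 0.702 counts-per-million (CPM) in any library. Of these, fipr-12 and fipr-25 had no count in any of the 33 libraries. A count of 0 allows up to 3 counts, or 0.108 CPM in the library with the fewest counts. The counts given below over 89 genes describe those that passed the filter.

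The members lay in clusters. Of the 107 genes, 43 were on chromosome V, 19 on IV, 18 on X, 12 on I, 12 on III and 3 on II, in the WBcel235 annotation. On chromosome V, lys-1, lys-2 and lys-3 shared 5.64 kb at 10277904 to 10283544, the 6 epidermal peptide genes nlp-34, nlp-31, nlp-30, nlp-29, nlp-28 and nlp-27 shared 10.9 kb at 3978825 to 3989770, and cnc-11 with cnc-1 to cnc-5 shared 7.84 kb at 1442342 to 1450183. A further cluster on V held fipr-4 to fipr-9 within 19.0 kb at 10220981 to 10239961. On chromosome X, spp-2 to spp-6 lay within 5.39 kb at 7314969 to 7320354. Neighbouring members can be close in sequence, and the treatment of reads shared between copies is not given in the sources used here, so counts may be split between neighbours. Exons of 9 members, lys-8, spp-1, spp-15, spp-16, spp-19, fip-2, fip-4, fipr-3 and fipr-15, overlapped an exon of a gene on the other strand. The libraries were strand-specific, but the counting setting is not given in the sources used here.

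Levels spanned more than 3 orders of magnitude per kilobase of exon. The most abundant member was spp-5, which encodes the pore-forming caenopore-5, at 2157 CPM per kb averaged over the 33 libraries. It was followed by spp-3 at 1080.4 CPM per kb and by the epidermal peptide gene nlp-33 at 1064 CPM per kb. Among lysozymes, ilys-5 of the invertebrate type stood at 528 CPM per kb, and the protist-type genes lys-1 and lys-8 at 344 and 302 CPM per kb. The highest members of the other groups were fipr-21 at 596, fip-2 at 154, cnc-8 at 64.2 and the defensin-like abf-5 at 44.3 CPM per kb. At the low end of the tested members, spp-9 had 0.261, nlp-32 had 0.350 and ilys-3, an intestinal lysozyme that digests bacteria, had 0.472 CPM per kb. The lowest members of the remaining groups were among those not tested: lys-9, ilys-6, spp-30, abf-3, fip-4, fipr-12 and cnc-5.

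**Figure D1:**
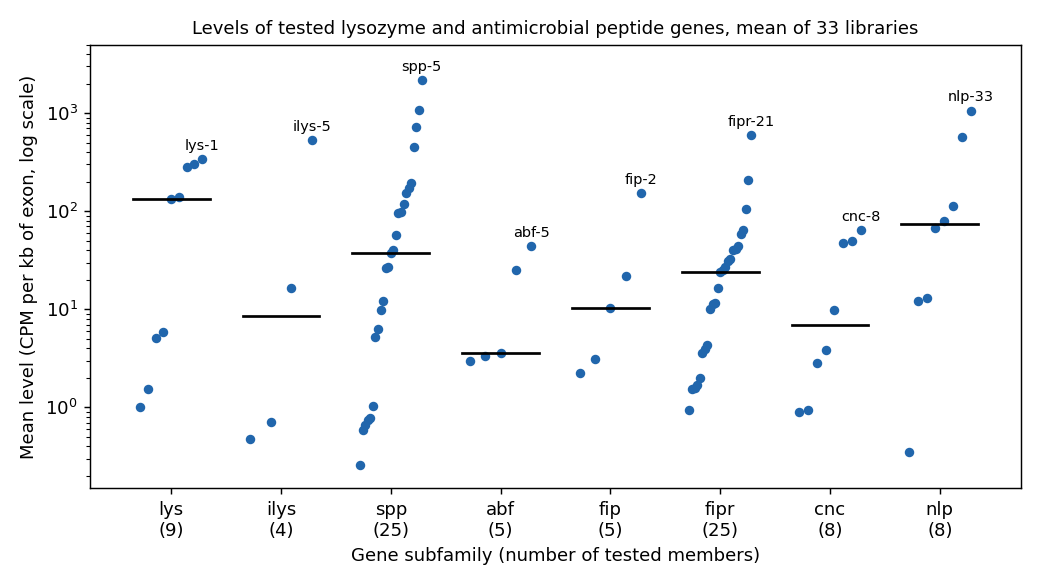
Level of each tested member in CPM per kilobase of exon, averaged over 33 libraries, on a log scale and by subfamily. Each dot is 1 gene, each bar is the subfamily median, and the highest member is named, led by spp-5 at 2157 CPM per kb.

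Summed over all 107 members, exposed F0 worms had 6029, 6298 and 5896 CPM and F0 controls 4999.6, 5452 and 5649 CPM. The 3 exposed F0 libraries were above all 3 controls. In F1 the sums were 5309 to 6059.6 CPM in exposed, 4573 to 4979 CPM in recovery and 5392 to 5499 CPM in control worms, and the recovery libraries were the lowest. In F2 the sums were 5029.8 to 5504 CPM in exposed, 5262 to 5841 CPM in recovery and 5011 to 6062 CPM in control worms, and the groups overlapped. In F3 they were 5594 to 6082 CPM in exposed, 5144 to 5579 CPM in recovery and 5052 to 5447 CPM in control worms. These sums rest on a few genes, since spp-5 alone averaged 912 CPM in exposed F0 worms.

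The first comparison asked which members differed between irradiated and control worms in each generation, with edgeR's quasi-likelihood test. A gene was called where its p, adjusted by the Benjamini-Hochberg method across the 17627 tested genes, lay under 0.05. In F0, 10 of 89 tested members were called and all 10 were higher in exposed worms, against 1.36% of all genes called and 1.29% called as higher and 0.0738% as lower. They were 7 fipr genes (fipr-1, fipr-3, fipr-7, fipr-8, fipr-10, fipr-11 and fipr-13) and the 3 saposin-like genes spp-5, spp-15 and spp-25. The median log2 difference was 0.25 over the 89 members and 0.01 over all genes tested. All 10 calls were lost without F0 exposed replicate 1, without F0 control replicate 1 or without F0 control replicate 2, and in a fit of the F0 libraries alone, and 6 calls were made without F0 exposed replicate 3.

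In F1, edgeR called 0 of 89 members, against 1.47% of all genes, 0.942% higher and 0.528% lower, while 9 members had an unadjusted p under 0.05 and DESeq2 called 1. The members' median log2 difference was -0.05, against 0.00 over all genes. In F2, 5 members were called, 2 higher (spp-25 and lys-2) and 3 lower (cnc-8, lys-4 and nlp-29), against 9.0% of all genes, 2.81% higher and 6.20% lower. The members' median log2 difference in F2 was -0.13, against -0.02 over all genes. The F2 count was 3 without F2 exposed replicate 1, 1 without F2 exposed replicate 3 or F2 control replicate 1, 0 without F2 control replicate 2 and 9 without F2 control replicate 3.

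In F3, 11 members were called, 6 higher and 5 lower, against 5.24% of all genes, 2.87% higher and 2.37% lower. The 6 higher genes were spp-8, fip-3, fipr-18, fipr-19, fipr-27 and fipr-28, and the 5 lower genes were lys-3, spp-22, fipr-22, cnc-4 and cnc-11. The median log2 difference was 0.11 over the members and -0.00 over all genes. The count was 3 without F3 exposed replicate 3, 5 without F3 control replicate 1 and 0 in a fit of F3 alone.

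The second comparison asked what remained in unirradiated descendants, and it shares its controls with the first. In F1 recovery worms, 3 members were called, all lower (lys-4, lys-6 and spp-2), against 2.81% of all genes, 2.05% higher and 0.755% lower, and none of the 3 was called when F1 recovery replicate 1 or 2 or F1 control replicate 1 or 2 was left out. In F2 recovery worms, 2 members were called, lys-2 as higher and spp-13 as lower, against 3.05% of all genes, 0.238% higher and 2.81% lower. The F2 count was 0 without F2 recovery replicate 1 or 2 or F2 control replicate 1 or 2, 1 without F2 recovery replicate 3 and 4 without F2 control replicate 3. In F3 recovery worms, 3 members were called, all lower (lys-3, fipr-22 and cnc-4), against 1.58% of all genes, 0.913% higher and 0.669% lower. The F3 count was 0 without F3 recovery replicate 1 or 3 or F3 control replicate 1 or 3, and 7 without F3 control replicate 2. The members' median log2 difference was -0.17 in F1, -0.04 in F2 and -0.01 in F3, against -0.00, -0.02 and -0.01 over all genes.

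Exposed worms were also set against recovery worms of the same generation. In F1, 2 members were called, both higher in exposed worms (spp-18 and spp-25), against 1.45% of all genes, 0.919% higher and 0.528% lower. In F2, edgeR and DESeq2 each called 0 of 89 members, against 0.00567% of all genes with edgeR, and 7 members had an unadjusted p under 0.05. In F3, 2 members were called, both higher in exposed worms (fipr-16 and fipr-18), against 1.68% of all genes, 0.817% higher and 0.862% lower. The F1 count was 1 without F1 exposed replicate 1 and 0 without F1 exposed replicate 2 or any 1 of the F1 recovery libraries. The F3 count was 0 without F3 exposed replicate 1 or 3 or F3 recovery replicate 1 or 3, and 7 without F3 exposed replicate 2.

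**Figure D2:**
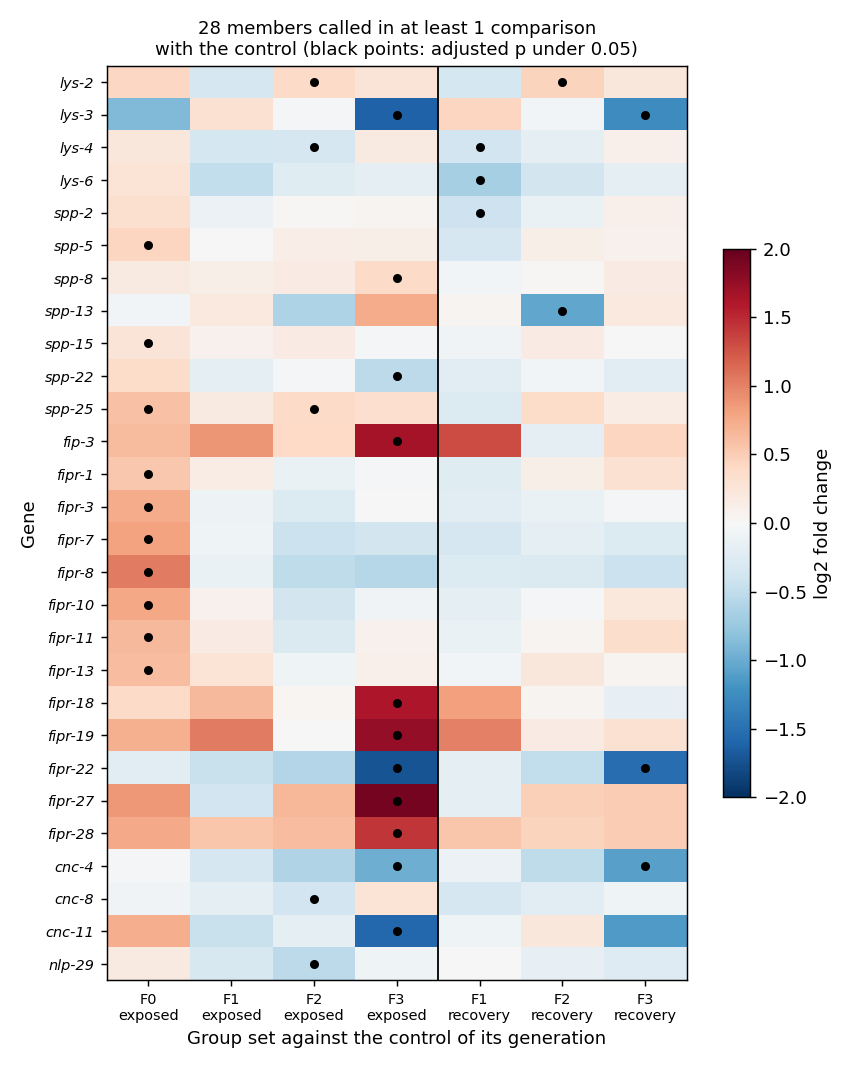
Log2 difference from the control group of the same generation for the 28 members called in at least 1 of the 7 comparisons with control, with exposed generations first and recovery generations after them. Colours run from -2 to 2, and black points mark an adjusted p under 0.05, of which most are in F0 exposed (10) and F3 exposed (11). Of all genes, 1.36% were called in F0 exposed and 5.24% in F3 exposed worms. The share of all genes called in at least 1 of the 7 comparisons is not given, so the 28 are not compared with other genes.

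Averaged over F0 to F3, 15 members differed between exposed and control worms, 12 higher and 3 lower, against 8.29% of all genes, 5.53% higher and 2.77% lower. The members' median log2 difference was 0.05, against -0.01 over all genes. The 12 higher genes were spp-5, spp-8, spp-15, spp-18, spp-25, abf-1, fip-3, fipr-16, fipr-19, fipr-20, fipr-28 and nlp-27, and the 3 lower genes were lys-3, fipr-22 and cnc-4. Of the 15 calls, 8 held under each of the 29 alternatives run: spp-5, spp-8, spp-18, spp-25, abf-1, fipr-16, fipr-22 and fipr-28. Averaged over F1 to F3, 4 members were lower in recovery than in control worms (lys-6, spp-31, fipr-22 and cnc-4), against 2.89% of all genes, 1.33% higher and 1.57% lower. The recovery count was 0 without F2 recovery replicate 1, F2 control replicate 2 or F3 control replicate 1, and 13 without F3 control replicate 2.

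The lys genes encode the protist-type lysozymes that C. elegans is best known for, several of them made in the intestine. Of the 9 tested, lys-2, lys-3, lys-4 and lys-6 were called in some comparison within a generation, and lys-1, lys-7 and lys-8 were called in none. Summed over the lys genes, exposed worms had 1124 to 1283 CPM in F0, 1118 to 1169.5 in F1, 1126 to 1299.5 in F2 and 976 to 1077 in F3. Recovery worms had 987 to 1006 CPM in F1, 1104 to 1376 in F2 and 959 to 1142 in F3, and control worms 986 to 1088 in F0, 1173 to 1420.2 in F1, 1081 to 1113 in F2 and 918 to 991 in F3. In F1 the recovery and exposed libraries all lay below the control libraries, while in F0 and F2 the exposed libraries lay above them and in F3 the ranges overlapped.

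The intestinal lysozyme gene lys-2 had 144, 159 and 195 CPM in F2 exposed worms, 164, 152 and 199 CPM in F2 recovery worms and 128, 107 and 146 CPM in F2 controls. The highest F2 control was just above the lowest F2 exposed library, and all 3 recovery libraries were above the controls. It rose 1.31-fold in exposed worms (log2 difference 0.39 ± 0.12 SE, adjusted p = 0.0371) and 1.35-fold in recovery worms (0.44 ± 0.12 SE, adjusted p = 0.0401), 2 values that rest on the same controls. The exposed call was lost without F2 exposed replicates 2 and 3 and F2 control replicates 1 and 2, and the recovery call without F2 recovery replicates 1, 2 and 3 and F2 control replicates 1 and 2. In F1 the order was the other way round: exposed worms had 109.6, 113 and 115 CPM and controls 159, 129 and 140.1 CPM, with all exposed libraries below the controls (log2 difference -0.34 ± 0.12 SE, adjusted p = 0.176, not called). The log2 differences of exposed against control were 0.42, -0.34, 0.39 and 0.26 from F0 to F3, and the test of a difference among generations gave an adjusted p of 0.0184. That call was lost without F1 control replicate 1.

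Its neighbour lys-3 had 2.67, 0.975 and 1.66 CPM in F3 exposed worms, 2.22, 2.47 and 2.00 CPM in F3 recovery worms and 5.63, 2.33 and 8.10 CPM in F3 controls. F3 control replicate 2 was as low as the irradiated lineage, and the other two controls were above every exposed and recovery library. It fell in exposed worms by 3.05-fold (log2 difference -1.61 ± 0.35 SE, adjusted p = 0.00684) and in recovery worms by 2.40-fold (-1.26 ± 0.32 SE, adjusted p = 0.0436). The exposed call was lost without F3 control replicate 3, and the recovery call without F3 recovery replicates 1 and 3 and F3 control replicates 1 and 3. Over F0 to F3 the exposed average was -0.55 ± 0.16 (log2, SE; adjusted p = 0.0267), a call lost without F0 control replicate 1, F1 exposed replicate 2, F1 control replicate 1, F2 control replicate 3, F3 exposed replicate 2 and F3 control replicate 3. Per kilobase lys-3 was rarer than its neighbours, at 5.85 CPM against 139 for lys-2 and 344 for lys-1.

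On chromosome IV, lys-4 and lys-6 lay with lys-5 within 6.52 kb, at 11621429 to 11627947. The abundant lys-4 had 237, 275 and 242 CPM in F1 exposed worms, 246, 243 and 245 CPM in F1 recovery worms and 331, 324 and 305 CPM in F1 controls. Every irradiated-lineage library was below every F1 control. In recovery worms it fell 1.31-fold (log2 difference -0.39 ± 0.11 SE, adjusted p = 0.0462), whereas the exposed difference of -0.35 ± 0.11 SE was not called (adjusted p = 0.119). Leaving out any 1 of the 6 F1 recovery and control libraries ended the recovery call. In F2 the gene had 190.4, 156 and 153 CPM in exposed worms and 204, 245 and 185 CPM in controls, overlapping sets between which it fell 1.27-fold (log2 difference -0.34 ± 0.11 SE, adjusted p = 0.0454). That call went without F2 exposed replicates 2 and 3 and F2 control replicates 1 and 2. The rarer lys-6 had 3.11, 3.85 and 3.51 CPM in F1 recovery worms and 5.71, 5.39 and 5.34 CPM in F1 controls, with no overlap, and fell 1.58-fold (log2 difference -0.66 ± 0.18 SE, adjusted p = 0.0482). It too was lost without any 1 of these 6 libraries. Averaged over F1 to F3 it was lower in recovery worms by 1.32-fold (-0.40 ± 0.11 SE on the log2 scale, adjusted p = 0.0436), lost without F1 recovery replicates 1, 2 and 3, F1 control replicates 1 and 2, F2 recovery replicates 1 and 2, F2 control replicates 1 and 2, F3 recovery replicates 1 and 3 and F3 control replicates 1 and 3.

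Of the lysozyme genes named for a known role, lys-2 was called as above, and lys-1, lys-7 and lys-8 gave no call for exposure or recovery. The insulin-pathway target lys-7 differed far more between generations than between treatments: exposed worms averaged 199 ± 2.36 CPM in F0, 185 ± 14.3 in F1, 94.8 ± 23.1 in F2 and 67.7 ± 2.33 in F3, and controls 178 ± 13.2 CPM in F0, 178 ± 13.2 in F1, 90.0 ± 22.7 in F2 and 58.0 ± 8.12 in F3 (SD, n = 3 each). Its log2 differences of exposed against control were 0.16, 0.06, 0.07 and 0.23 from F0 to F3. Its smallest adjusted p-value against control was 0.162, in F1 recovery worms. For lys-1 the log2 differences were 0.14, -0.23, 0.19 and 0.10 from F0 to F3, and in F1 recovery worms -0.43 (adjusted p = 0.0678). For lys-8 they were 0.20, 0.03, 0.22 and -0.00 from F0 to F3. The intestinal markers summed to 1582 to 1908 CPM in F2 exposed, 1969.7 to 2052 CPM in F2 recovery and 1552 to 2679.7 CPM in F2 control worms. The F2 controls overlapped both other groups, and F2 exposed lay below F2 recovery. In F1 they summed to 1691 to 2168 CPM in exposed, 1246 to 1393 CPM in recovery and 1413 to 1779 CPM in control worms. All F1 recovery libraries were below all F1 controls, and the F1 exposed libraries overlapped the controls. The part of these markers in the lys differences was not tested.

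The ilys genes encode lysozymes of the invertebrate type. The smallest adjusted p-value of the 4 tested ilys genes in any comparison of exposed, recovery and control worms was 0.058, for ilys-5 in F3, so that none was called. The abundant ilys-5 had 650.4, 823 and 781 CPM in F3 exposed worms and 640.1, 643 and 444 CPM in F3 controls (log2 difference 0.38 ± 0.12 SE). The exposed libraries were above the controls, of which replicate 3, one of the libraries that stood apart, was the lowest. The bacteria-digesting ilys-3 had 0.292, 0.0975 and 0.397 CPM in F3 exposed, 0.0854, 0.0521 and 0 CPM in F3 recovery and 0.188, 0.0259 and 0 CPM in F3 control worms. Its log2 differences from F0 to F3 were -0.61, -0.96, 0.76 and 2.07, the largest of them in F3 (2.07 ± 0.90 SE, adjusted p = 0.182, not called at these levels). The neighbouring ilys-2 was likewise uncalled in F2 recovery worms, with a log2 difference of 1.65 ± 0.54 SE (adjusted p = 0.0815).

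The spp genes encode small saposin-fold proteins, of which several, caenopore-5 among them, make pores in bacterial membranes. Of the 25 tested, 3 rose in F0 exposed worms, beside 1.29% of all genes called as higher there. In F2 exposed worms 1 rose, beside 2.81% of all genes. In F3 exposed worms 1 rose and 1 fell, beside 2.87% of all genes called as higher and 2.37% as lower. In F1 recovery worms 1 fell, beside 0.755% of all genes called as lower, and in F2 recovery worms 1 fell, beside 2.81%. On average over F0 to F3, 5 rose with exposure, beside 5.53% of all genes called as higher. In F1 recovery against control worms 21 of 25 had a log2 difference below 0, where 49.4% of all genes were above 0. In F1 exposed against recovery worms, which share those recovery libraries, 23 of 25 were above 0, beside 48.8% of all genes. Summed over the spp genes, F1 exposed worms had 2234 to 2505 CPM, F1 recovery worms 1882 to 1995 CPM and F1 controls 2248 to 2312 CPM, so that the recovery libraries were below both others. In F0 exposed worms had 2527 to 2683 CPM and controls 2170.3 to 2391 CPM, without overlap.

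The smallest adjusted p-value of the family for the average over generations was that of spp-25. It had 23.7, 22.5 and 21.4 CPM in F0 exposed worms and 14.5, 15.5 and 15.4 CPM in F0 controls. In F1 it had 20.5, 20.6 and 20.1 CPM in exposed, 14.8, 14.5 and 15.2 CPM in recovery and 18.5, 15.9 and 19.3 CPM in control worms. In F2 it had 14.8, 16.4 and 18.3 CPM in exposed, 15.2, 15.03 and 18.7 CPM in recovery and 12.3, 12.5 and 13.1 CPM in control worms. These values put every exposed library above every control of its generation in F0, F1 and F2. In F3 it had 16.6, 16.4 and 20.1 CPM in exposed, 15.9, 14.5 and 16.4 CPM in recovery and 11.7, 15.3 and 15.1 CPM in control worms, again with the exposed libraries above the controls. It rose 1.49-fold in F0 (log2 difference 0.58 ± 0.10 SE, adjusted p = 0.00834) and 1.30-fold in F2 (0.38 ± 0.11 SE, adjusted p = 0.0233). In F1 (0.18 ± 0.10 SE) and F3 (0.33 ± 0.11 SE) it was not called, at adjusted p-values of 0.507 and 0.0647. The average over F0 to F3 was 0.37 ± 0.05 (log2, SE), with an adjusted p of 2.36e-05. In F1 it was also 1.37-fold higher in exposed than in recovery worms (log2 difference 0.46 ± 0.10 SE, adjusted p = 0.0203). The F0 call was lost without F0 exposed replicate 1 and F0 control replicates 1 and 2, the F2 call without F2 exposed replicate 3 and F2 control replicates 1 and 2, and the F1 call against recovery without F1 exposed replicates 1 and 2 and F1 recovery replicates 1, 2 and 3.

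The gene of caenopore-5, spp-5, had the largest change in CPM among the members called within a generation. It had 976, 879 and 880.3 CPM in F0 exposed worms and 619.6, 752 and 659.7 CPM in F0 controls, and the lowest exposed library was above the highest control. This was 1.35-fold higher (log2 difference 0.43 ± 0.10 SE, adjusted p = 0.0205), lost without F0 exposed replicate 1 and F0 control replicates 1 and 2. Averaged over F0 to F3 it was higher by 0.17 ± 0.05 (log2, SE; adjusted p = 0.0204). In F1 recovery worms it had 566, 609 and 595 CPM, below all F1 controls at 802, 712 and 712 CPM, a difference of -0.33 ± 0.10 SE that was not called (adjusted p = 0.0551). Its neighbour spp-2 was called there: it had 50.0, 58.7 and 61.8 CPM in F1 recovery worms and 77.6, 80.6 and 70.4 CPM in F1 controls, and fell 1.34-fold (log2 difference -0.42 ± 0.11 SE, adjusted p = 0.0228). Without F1 recovery replicates 1 and 2 and F1 control replicates 1 and 2 that call was lost. Summed over the cluster of spp-2 to spp-6, F1 recovery worms had 968, 971 and 1013 CPM and F1 controls 1289, 1119 and 1204 CPM. The sum was lower in every recovery library than in every control.

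A further 3 spp genes rose on average with exposure. For spp-8 the F3 values were 53.0, 46.2 and 54.02 CPM in exposed and 41.1, 35.3 and 40.7 CPM in control worms, without overlap (1.31-fold, log2 difference 0.39 ± 0.08 SE, adjusted p = 0.00502). That call outlasted the loss of any 1 library and went only in a fit of F3 alone. Its average was 0.21 ± 0.04 (log2, SE; adjusted p = 0.000895). For spp-18 the average was 0.29 ± 0.07 (adjusted p = 0.00397), and in F1 it had 40.4, 53.5 and 39.4 CPM in exposed worms and 29.6, 30.7 and 27.1 CPM in recovery worms. The exposed libraries were all above recovery there (1.53-fold, log2 difference 0.61 ± 0.13 SE, adjusted p = 0.0139), a call lost without F1 exposed replicate 2 and F1 recovery replicates 1, 2 and 3. For spp-15 the F0 values were 67.3, 66.8 and 64.2 CPM in exposed and 53.4, 53.4 and 58.4 CPM in control worms (1.20-fold, log2 difference 0.26 ± 0.07 SE, adjusted p = 0.0467). It was lost without any 1 of the F0 exposed libraries or F0 control replicate 1 or 2. Its average of 0.12 ± 0.03 (adjusted p = 0.0291) was lost without F0 control replicates 1 and 2, F1 exposed replicate 2, F1 control replicate 2, F2 exposed replicate 2, F2 control replicate 1, F3 exposed replicate 3 and F3 control replicate 1.

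**Figure D3:**
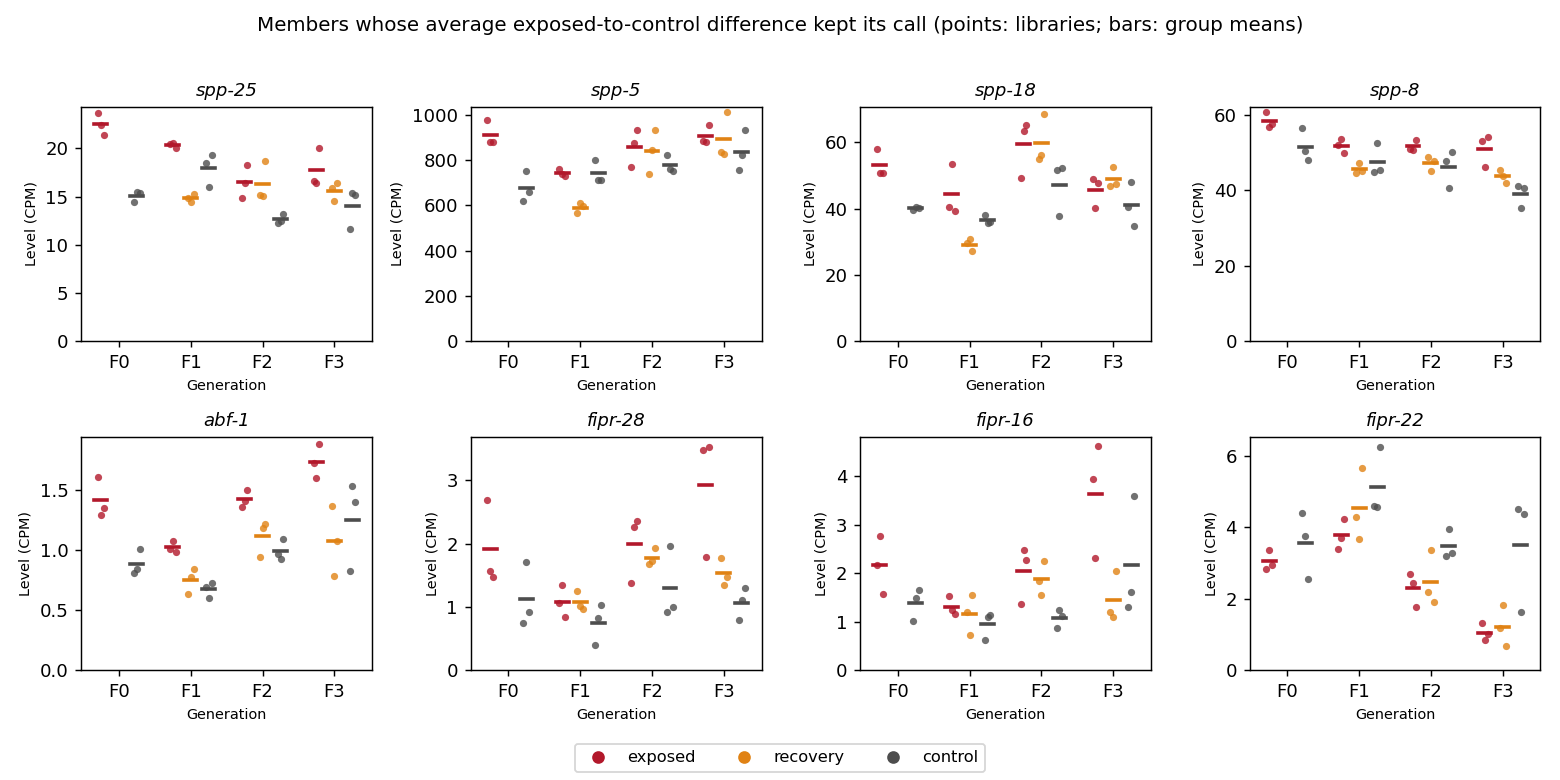
CPM in each library, by generation, for the 8 members whose average difference between exposed and control worms held under every alternative run. Points are libraries (exposed red, recovery orange, control grey) and bars are group means, with 7 of the 8 genes higher in exposed worms on average and fipr-22 lower.

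Other spp genes fell. In F3, spp-22 had 11.01, 8.22 and 7.36 CPM in exposed worms and 14.3, 11.5 and 12.4 CPM in controls, with every exposed library below every control (1.44-fold lower, log2 difference -0.52 ± 0.12 SE, adjusted p = 0.0125). The call was lost without F3 exposed replicates 2 and 3 and F3 control replicate 1. Its exposed against control differences were 0.36, -0.20, -0.04 and -0.52 from F0 to F3, which differed among generations (adjusted p = 0.0184) under every alternative run. In F2, spp-13 had 3.11, 2.82 and 3.98 CPM in recovery worms and 6.72, 6.93 and 6.70 CPM in controls, and fell 2.05-fold (log2 difference -1.04 ± 0.24 SE, adjusted p = 0.0215). The groups did not overlap, and the call was lost without F2 recovery replicates 1 and 2 and F2 control replicates 1 and 2. F2 exposed worms lay between them at 4.11, 4.94 and 4.22 CPM (difference from control -0.62 ± 0.24 SE, adjusted p = 0.101). On average over F1 to F3, spp-31 was lower in recovery worms by 1.34-fold (log2 difference -0.43 ± 0.10 SE, adjusted p = 0.0197), lost without F2 recovery replicate 1, F2 control replicate 2 and F3 control replicate 1.

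The caenopore and saposin genes of known role other than spp-5 gave no call with exposure or recovery. The log2 differences of exposed against control from F0 to F3 were 0.26, -0.15, -0.01 and 0.01 for spp-1, whose product is active against bacteria. They were 0.38, -0.09, 0.04 and -0.15 for the abundant spp-3, 0.09, -0.01, 0.07 and -0.11 for spp-10, a prosaposin relative, and 0.40, -0.31, -0.15 and 0.57 for spp-12, a caenopore known from pharyngeal neurons. The intestinal markers, from the tissue in which several caenopores are made, summed to 1286 to 1767 CPM in F0 exposed worms and 1894 to 1932 CPM in F0 controls. In F1 they summed to 1691 to 2168 CPM in exposed, 1246 to 1393 CPM in recovery and 1413 to 1779 CPM in control worms. Of the 9 tested, 2 (pho-1 and act-5) were higher in F1 exposed than in F1 recovery worms. In F1 exposed worms pho-1 was also higher than in controls (log2 difference 0.64 ± 0.14 SE, adjusted p = 0.0148), and in F3 recovery worms too (0.56 ± 0.14 SE, adjusted p = 0.0371). On average over F0 to F3, 2 of 9 rose with exposure, pho-1 (0.37 ± 0.07 SE, adjusted p = 0.000721) and elt-2 (0.35 ± 0.08 SE, adjusted p = 0.00425). Their part in the spp differences, the averages included, was not tested.

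The abf genes encode defensin-like antibacterial factors, and of the 5 tested abf-1 alone was called for exposure or recovery. It had 1.60, 1.29 and 1.34 CPM in F0 exposed worms and 0.808, 0.841 and 1.01 CPM in F0 controls. In F3 it had 1.72, 1.59 and 1.88 CPM in exposed, 1.37, 0.782 and 1.07 CPM in recovery and 0.826, 1.53 and 1.40 CPM in control worms. The exposed libraries lay above the controls in each of the 4 generations, and above the recovery libraries in F1, F2 and F3. No single generation passed the test, with log2 differences of 0.67, 0.59, 0.50 and 0.44 from F0 to F3, but the average did (1.47-fold, 0.55 ± 0.10 SE, adjusted p = 0.000826). In recovery worms the average over F1 to F3 was 0.02 ± 0.12 (adjusted p = 0.999). The gene is rare, with a mean of 1.12 CPM over the 33 libraries. Its neighbour abf-2, whose product is an antibacterial peptide of the pharynx, had log2 differences of 0.54, 0.06, 0.07 and -0.30 from F0 to F3, none called. The pharyngeal markers summed to 222 to 351 CPM in F0 exposed and 323 to 348 CPM in F0 control worms. In F3 they summed to 293 to 349 CPM in exposed and 281 to 319.9 CPM in control worms. The ranges overlapped in F0 and F3. In F1 they summed to 302 to 308 CPM in exposed, 276 to 278 CPM in recovery and 265 to 279 CPM in control worms. All F1 exposed libraries were above both other groups. In F2 they summed to 341 to 375 CPM in exposed, 389 to 401 CPM in recovery and 369 to 468 CPM in control worms. The F2 exposed libraries were below recovery and overlapped the controls. The part of these markers in the abf-1 difference was not tested.

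The fip and fipr genes are named for transcripts that rise when a fungus infects the epidermis, or for their likeness to these, and what most of their products do is not established. In F0 exposed worms 22 of 25 tested fipr genes had a log2 difference above 0, with a median of 0.61, and 7 of them rose, while 52.6% of all genes were above 0. By chromosome, 6 of the 12 tested fip and fipr genes on V and 1 of 3 on X rose in F0, beside 1.29% of all genes called as higher. The 12 on V had a median of 0.63 and were all above 0. In F3, 3 of 7 on III and 2 of 3 on IV rose, with medians of 1.43 and 1.45, beside 2.87% of all genes called as higher. The 12 on V had a median of -0.05 there and none was called. Neighbouring genes may share reads, so these counts are not of independent genes. Chromosome and place are here a way to order the genes, not a tested property.

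**Figure D4:**
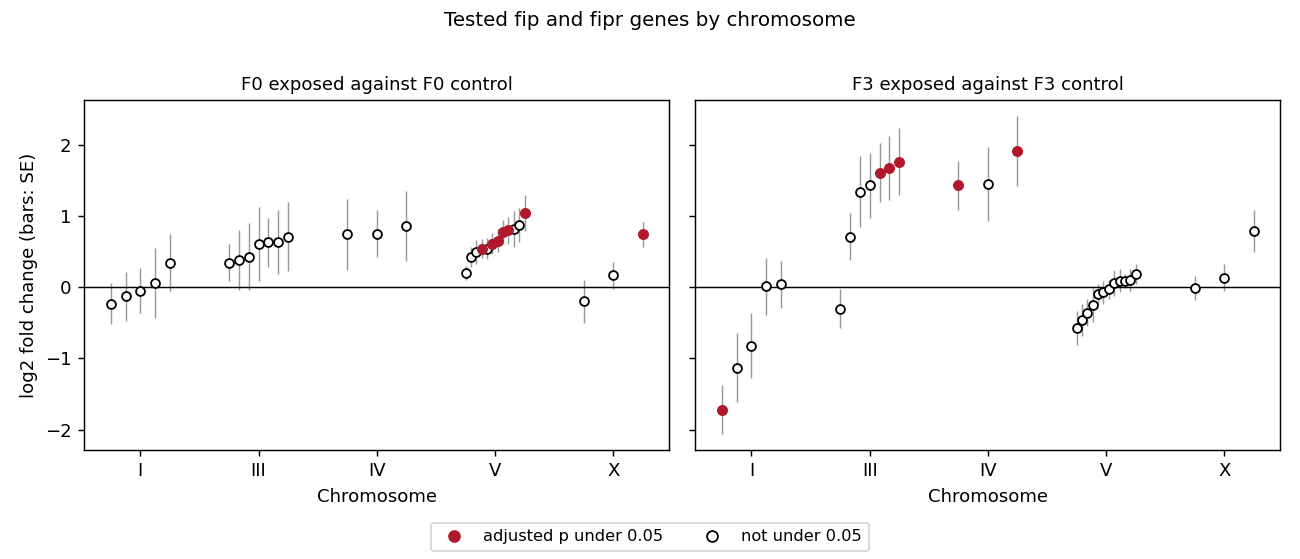
Log2 difference ± SE of exposed against control worms for each tested fip and fipr gene, grouped by chromosome, in F0 and in F3. Red marks an adjusted p under 0.05, among them 6 of 12 genes on V in F0, where 1.29% of all genes were called as higher. In F3 they include 3 of 7 on III and 2 of 3 on IV, where 2.87% of all genes were called as higher.

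In F0, fipr-8 had 10.1, 6.46 and 7.21 CPM in exposed worms and 2.21, 4.60 and 4.75 CPM in controls. F0 control replicate 1 was the lowest and F0 exposed replicate 1 the highest of the 6, and the groups did not overlap. The fitted log2 difference was 1.04 ± 0.25 SE (adjusted p = 0.033), lost without F0 exposed replicates 1 and 3 and F0 control replicates 1 and 2. Its neighbour fipr-7 had 19.2, 14.97 and 15.7 CPM in exposed and 6.04, 10.8 and 11.9 CPM in control worms (1.74-fold, 0.80 ± 0.19 SE, adjusted p = 0.028), lost without the same libraries. Summed over the 6 genes fipr-4 to fipr-9, exposed F0 worms had 87.1, 65.7 and 69.8 CPM and F0 controls 30.6, 49.7 and 57.1 CPM. Again the first replicates lay at the ends. The epidermal markers, of the tissue in which fungus-induced genes are best known, summed to 893 to 1336 CPM in F0 exposed and 1316 to 1344 CPM in F0 control worms, an overlap, and their part in the result was not tested. Elsewhere on V, at 9914163 to 9914529, fipr-10 had 26.9, 22.4 and 21.9 CPM in exposed worms and 9.16, 12.7 and 19.6 CPM in controls (log2 difference 0.78 ± 0.16 SE, adjusted p = 0.0169), lost without F0 exposed replicate 1 and F0 control replicates 1 and 2.

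For fipr-7 and fipr-8 of the cluster, and for fipr-10 outside it, the direction did not stay as in F0. In F2, fipr-8 had 6.70, 8.02 and 8.73 CPM in exposed worms and 9.79, 12.1 and 11.4 CPM in controls, with the exposed libraries lower, though not called (adjusted p = 0.18). The log2 differences of exposed against control from F0 to F3 were 1.04, -0.14, -0.51 and -0.57 for fipr-8, 0.80, -0.08, -0.43 and -0.36 for fipr-7 and 0.78, 0.09, -0.36 and -0.07 for fipr-10. The test of a difference among generations gave adjusted p-values of 0.0177, 0.0177 and 0.0184, each lost without F0 exposed replicate 1. Within the controls these 3 genes had their lowest mean in F0: fipr-8 averaged 3.85 ± 1.425 CPM in F0, 8.79 ± 1.35 in F1, 11.1 ± 1.19 in F2 and 10.4 ± 3.70 in F3 (SD, n = 3 each). In exposed worms it averaged 7.92 ± 1.92, 7.96 ± 0.412, 7.82 ± 1.03 and 7.003 ± 2.64 CPM in F0 to F3.

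In F3, 3 short genes of chromosome III rose, of which fipr-18 and fipr-19 are neighbours. fipr-19, fipr-18 and fipr-20 lay within 3.58 kb at 7458815 to 7462395, with exon lengths of 132, 132 and 129 bases. For fipr-18 there were 4.31, 2.47 and 4.26 CPM in exposed, 1.13, 0.834 and 1.23 CPM in recovery and 0.676, 1.218 and 1.63 CPM in control worms. All 3 exposed libraries were above all recovery and control libraries. It rose 3.05-fold against control (log2 difference 1.61 ± 0.42 SE, adjusted p = 0.025) and 3.42-fold against recovery (1.77 ± 0.42 SE, adjusted p = 0.0404). The call against control was lost without F3 exposed replicates 1 and 3 and F3 control replicates 1 and 2, and that against recovery without F3 exposed replicates 1 and 3 and F3 recovery replicates 1 and 3. Summed over the 3 genes, F3 exposed worms had 10.3, 5.26 and 9.27 CPM, F3 recovery worms 3.28, 2.40 and 3.11 CPM and F3 controls 1.28, 2.39 and 4.53 CPM. The exposed sums were the 3 highest.

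A second short pair on III, fip-3 and fipr-16, lay within 1.65 kb at 8589336 to 8590982. For fip-3 there were 1.46, 1.20 and 1.23 CPM in F3 exposed and 0.188, 0.207 and 0.776 CPM in F3 control worms, with exposed above control (3.18-fold, log2 difference 1.67 ± 0.45 SE, adjusted p = 0.0277), lost without F3 exposed replicates 1 and 3 and F3 control replicates 1 and 2. For fipr-16 there were 3.95, 2.31 and 4.62 CPM in F3 exposed and 1.20, 1.09 and 2.04 CPM in F3 recovery worms (2.50-fold, 1.32 ± 0.33 SE, adjusted p = 0.0424), lost without F3 exposed replicates 1 and 3 and F3 recovery replicates 1, 2 and 3. Its average difference from control over F0 to F3 was 0.68 ± 0.18 (log2, SE; adjusted p = 0.0137). fipr-19 rose in F3 by 1.76 ± 0.47 (adjusted p = 0.0267), lost without the same libraries as fip-3. On average fipr-19 rose by 0.88 ± 0.25 (adjusted p = 0.0226, lost without F1 exposed replicate 2 and F2 exposed replicate 3), and fip-3 by 0.90 ± 0.26 (adjusted p = 0.027, lost without F0 exposed replicate 2, F1 exposed replicate 1, F1 control replicate 1 and F2 exposed replicate 2). The average of fipr-20 was 0.83 ± 0.25 (adjusted p = 0.0352), and its call was lost under 15 of 29 alternatives, 14 of them a single library left out: F0 exposed replicate 2, F0 control replicates 1 and 3, F1 exposed replicates 1 and 2, F1 control replicates 1 and 2, F2 exposed replicates 2 and 3, F2 control replicates 1 and 3, F3 exposed replicate 1 and F3 control replicates 1 and 2.

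On chromosome IV, fip-7, fipr-28 and fipr-27 lay within 5.04 kb at 16626209 to 16631247. For fipr-28 there were 3.47, 1.79 and 3.53 CPM in F3 exposed, 1.78, 1.35 and 1.47 CPM in F3 recovery and 0.788, 1.11 and 1.29 CPM in F3 control worms. Exposed libraries were above both other groups (2.69-fold against control, log2 difference 1.43 ± 0.34 SE, adjusted p = 0.0117), a call lost without F3 exposed replicate 3. Its average over F0 to F3 was 0.84 ± 0.17 (adjusted p = 0.00196). For fipr-27 there were 1.499, 0.845 and 1.44 CPM in F3 exposed and 0.188, 0.207 and 0.569 CPM in F3 control worms (3.76-fold, 1.91 ± 0.49 SE, adjusted p = 0.0208), lost without F3 exposed replicates 1 and 3 and F3 control replicates 1 and 2. Summed over the 3 genes, F3 exposed worms had 6.14, 3.31 and 6.42 CPM and F3 controls 1.20, 1.61 and 2.51 CPM, without overlap.

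Male markers, taken as a sum, were also higher in F3 exposed worms. Of 5 male markers listed, 4 were tested and 2, mab-3 and asic-2, were called as higher in F3 exposed worms. Both were also called as higher on average over F0 to F3 (adjusted p = 0.035 and 0.000747). In F1 exposed worms, where no fip or fipr gene was called, asic-2 was called as higher too (log2 difference 1.44 ± 0.30 SE, adjusted p = 0.00809). The summed male markers were 5.003 to 7.39 CPM in F3 exposed, 2.85 to 3.20 CPM in F3 recovery and 1.69 to 3.09 CPM in F3 control worms. None was at 0 throughout a group. Their part in the rise of the short fip and fipr genes was not tested, and neither was that of the short exons, which are shorter than the library fragments the labels describe. The moulting cuticle markers also ranged higher in F3, with 61.6 to 125 CPM in exposed, 57.9 to 73.9 CPM in recovery and 50.3 to 79.0 CPM in control worms, and 3 of 12 (bli-1, dpy-9 and qua-1) were called as higher in exposed than in control worms. Their part was not tested either. Male markers were also 7.57 to 9.94 CPM in F0 exposed and 5.53 to 6.58 CPM in F0 control worms, and 6.88 to 7.46 CPM in F1 exposed and 2.09 to 4.78 CPM in F1 control worms.

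The only fip or fipr gene that fell was fipr-22, on chromosome I beside fipr-23 and fipr-24. It had 1.32, 0.845 and 1.01 CPM in F3 exposed, 1.18, 1.82 and 0.680 CPM in F3 recovery and 4.505, 1.63 and 4.37 CPM in F3 control worms. The exposed libraries were below all controls, and F3 control replicate 2 was the low control. Against these shared controls it fell 3.29-fold in exposed worms (log2 difference -1.72 ± 0.34 SE, adjusted p = 0.00361) and 2.86-fold in recovery worms (-1.52 ± 0.32 SE, adjusted p = 0.0141). Leaving out single libraries did not end the exposed call, which was lost only in a fit of F3 alone, whereas the recovery call was lost without F3 recovery replicates 1 and 3 and F3 control replicates 1 and 3. The averages were -0.74 ± 0.15 for exposed worms (adjusted p = 0.00223) and -0.73 ± 0.17 for recovery worms (adjusted p = 0.0262, lost without F1 recovery replicates 1 and 2, F2 recovery replicates 1 and 3, F2 control replicate 2, F3 recovery replicates 1 and 3 and F3 control replicates 1 and 3). Summed with its 2 neighbours, F3 exposed worms had 2.71, 1.72 and 2.02 CPM, F3 recovery worms 2.03, 2.66 and 2.21 CPM and F3 controls 5.97, 2.36 and 6.68 CPM. On the sum, F3 control replicate 2 lay among the exposed and recovery libraries.

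The cnc genes encode caenacins, glycine-rich peptides of which some are induced in the epidermis by fungal infection. Of the 8 tested, cnc-8 fell in F2 exposed worms and cnc-4 and cnc-11 fell in F3 exposed worms. In F3 recovery worms cnc-4 also fell. Of all genes, 6.20% were called as lower in F2 exposed, 2.37% in F3 exposed and 0.669% in F3 recovery worms. For cnc-8 there were 12.03, 15.9 and 16.01 CPM in F2 exposed and 20.5, 20.03 and 16.9 CPM in F2 control worms, with no overlap (1.31-fold lower, log2 difference -0.38 ± 0.11 SE, adjusted p = 0.0324), lost without F2 exposed replicate 1 and F2 control replicates 1 and 2. For cnc-4 there were 27.3, 10.9 and 15.8 CPM in F3 exposed, 14.5, 23.0 and 12.8 CPM in F3 recovery and 45.3, 24.8 and 36 CPM in F3 control worms. F3 exposed replicate 1 was above the lowest control, F3 control replicate 2, and all recovery libraries were below all controls. The fall was 1.97-fold in exposed (log2 difference -0.98 ± 0.27 SE, adjusted p = 0.0363) and 2.11-fold in recovery worms (-1.08 ± 0.27 SE, adjusted p = 0.0429), both against the same controls. The exposed call was lost without F3 exposed replicates 2 and 3 and F3 control replicates 1 and 3, and the recovery call without F3 recovery replicates 1 and 3 and F3 control replicates 1 and 3.

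Averaged over generations, cnc-4 was lower in exposed worms (log2 difference -0.49 ± 0.14 SE, adjusted p = 0.0234) and in recovery worms (-0.56 ± 0.16 SE, adjusted p = 0.0487). The exposed average was lost without F0 exposed replicate 3 and F3 control replicate 1. The recovery average was lost under 18 of 23 alternatives, 15 of them a single library left out, namely every F1 library and F2 recovery replicates 1 and 3, F2 control replicates 1, 2 and 3, F3 recovery replicates 1 and 3 and F3 control replicates 1 and 3. Summed over the cluster of cnc-1 to cnc-5 and cnc-11, F3 exposed worms had 36.2, 17.4 and 21.9 CPM, F3 recovery worms 18.8, 29.5 and 18.7 CPM and F3 controls 56.05, 30.9 and 44.9 CPM, overlapping only through F3 exposed replicate 1 and F3 control replicate 2. The 8 epidermal markers summed to 969 to 1186 CPM in F3 exposed, 723 to 945 CPM in F3 recovery and 665 to 1093 CPM in F3 control worms, with 2 of 8 (elt-1 and lin-26) called as lower in exposed worms, and their part in the cnc result was not tested. The fungus-induced caenacin gene cnc-2 was called in no comparison, with differences from control of -0.78, -0.26, -0.04 and 0.42 in F0 to F3 exposed worms. Differences of cnc-10 among generations are given with those of the other members that passed that test.

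The nlp-29 cluster and nlp-33 encode epidermal peptides that rise after fungal infection or wounding. In F2 exposed worms all 8 tested nlp genes had log2 differences below 0, with a median of -0.67. Of all genes, 46.5% were above 0 there. Among the 8, 1 was called as lower, beside 6.20% of all genes. That was nlp-29, the best known of them, with 23.5, 31.3 and 20.2 CPM in F2 exposed and 35.7, 35.3 and 36.9 CPM in F2 control worms, where every exposed library was below every control. It was 1.44-fold lower (log2 difference -0.52 ± 0.17 SE, adjusted p = 0.0499), just inside the threshold and lost without any 1 of the F2 controls or F2 exposed replicates 1 and 3. It was also lost without the filter on low counts, with DESeq2 size factors, with a replicate block, and without the 2 libraries that stood apart. Another 3 members of the cluster had adjusted p-values just outside the threshold: 0.054 for nlp-34 (log2 difference -1.05 ± 0.35 SE), 0.0541 for nlp-30 (-0.84 ± 0.28 SE) and 0.0669 for nlp-31 (-0.68 ± 0.23 SE). The 4 remaining nlp genes were further from it, at 0.119 for nlp-33, 0.332 for nlp-32, 0.661 for nlp-27 and 0.71 for nlp-28. For nlp-30 the values were 7.52, 7.70 and 7.44 CPM in F2 exposed, 6.15, 6.96 and 8.87 CPM in F2 recovery and 13.4, 13.02 and 14.2 CPM in F2 control worms, with all controls above both other groups.

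The nlp genes are epidermal, and so are the genes of the moulting cuticle. Its 12 marker genes summed to 118 to 172 CPM in F2 exposed, 88.9 to 104 CPM in F2 recovery and 163 to 218 CPM in F2 control worms, with 1 of 12 called as lower in exposed and 6 of 12 in recovery worms. None of the 12 was at 0 throughout a group. Their part in the nlp differences was not tested. The epidermal markers summed to 1009 to 1162 CPM in F2 exposed, 1177 to 1273 CPM in F2 recovery and 839 to 1472 CPM in F2 control worms. Of these 8, wrt-2 (log2 difference -1.80 ± 0.46 SE, adjusted p = 0.0328) and rol-6 (-1.47 ± 0.33 SE, adjusted p = 0.022) were lower in F2 recovery than in control worms, and their part was likewise not tested. Over the 4 generations nlp-27 was the 1 member of the group that differed on average, higher in exposed worms by 0.36 ± 0.11 (log2, SE; adjusted p = 0.0376). It had 172, 223 and 138 CPM in F1 exposed and 92.2, 109 and 124 CPM in F1 control worms, and 214, 256 and 261 CPM in F3 exposed and 141, 170.2 and 158 CPM in F3 control worms, without overlap in either. In F0 it had 205, 300.3 and 243 CPM in exposed and 169, 208 and 249.7 CPM in control worms, and in F2 172, 203 and 135 CPM in exposed and 216, 222 and 138 CPM in control worms, with overlap in both. The log2 differences from F0 to F3 were 0.25, 0.71, -0.18 and 0.64, so that F2 lay on the other side of 0. The call was lost under 14 of 29 alternatives, 13 of them a single library left out: F0 exposed replicate 2, F0 control replicates 1 and 2, F1 exposed replicates 1 and 2, F1 control replicates 1 and 2, F2 exposed replicates 1 and 2, F2 control replicate 3, F3 exposed replicates 2 and 3 and F3 control replicate 1.

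A further test asked whether the difference between exposed and control worms itself changed among F0 to F3. Of the 89 tested members, 11 passed it, against 5.33% of all genes: lys-2, lys-3, lys-4, spp-22, fipr-3, fipr-4, fipr-6, fipr-7, fipr-8, fipr-10 and cnc-10. For each of the 6 fipr genes the largest of the 4 log2 differences was that of F0, and the control mean was lowest in F0. For lys-4 the log2 differences were 0.23, -0.35, -0.34 and 0.18 from F0 to F3 (adjusted p = 0.0217), and for cnc-10 they were 0.30, 0.07, -0.28 and 0.21 (adjusted p = 0.0476). The calls of lys-4 and spp-22 held under every alternative run. The count was 4 without F0 exposed replicate 1 and 6 without F0 control replicate 1.

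The controls themselves differed among F0 to F3 in 46 of the 89 members, or 51.7%, against 54.6% of all genes. These were 7 of 9 lys, 3 of 4 ilys, 11 of 25 spp, 4 of 5 abf, 2 of 5 fip, 11 of 25 fipr, 3 of 8 cnc and 5 of 8 nlp genes. The smallest adjusted p-value was that of spp-13, with 1.32, 1.10 and 1.17 CPM in F0, 6.91, 8.18 and 6.57 in F1, 6.72, 6.93 and 6.70 in F2 and 2.33, 1.04 and 2.48 in F3 controls (adjusted p = 7.65e-09). It was high in F1 and F2 and low in F0 and F3. The lysozyme gene ilys-4 averaged 15.8 ± 0.964, 17.2 ± 0.931, 10.3 ± 0.439 and 9.47 ± 0.980 CPM in F0 to F3 controls (SD, n = 3 each; adjusted p = 1.37e-08), so that F0 and F1 were above F2 and F3. The insulin-pathway target lys-7 followed the same order (adjusted p = 2.99e-08), as did the defensin-like abf-5, at 27.7 ± 0.834, 26.9 ± 1.12, 19.5 ± 1.24 and 16.9 ± 3.58 CPM (adjusted p = 4.52e-05).

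**Figure D5:**
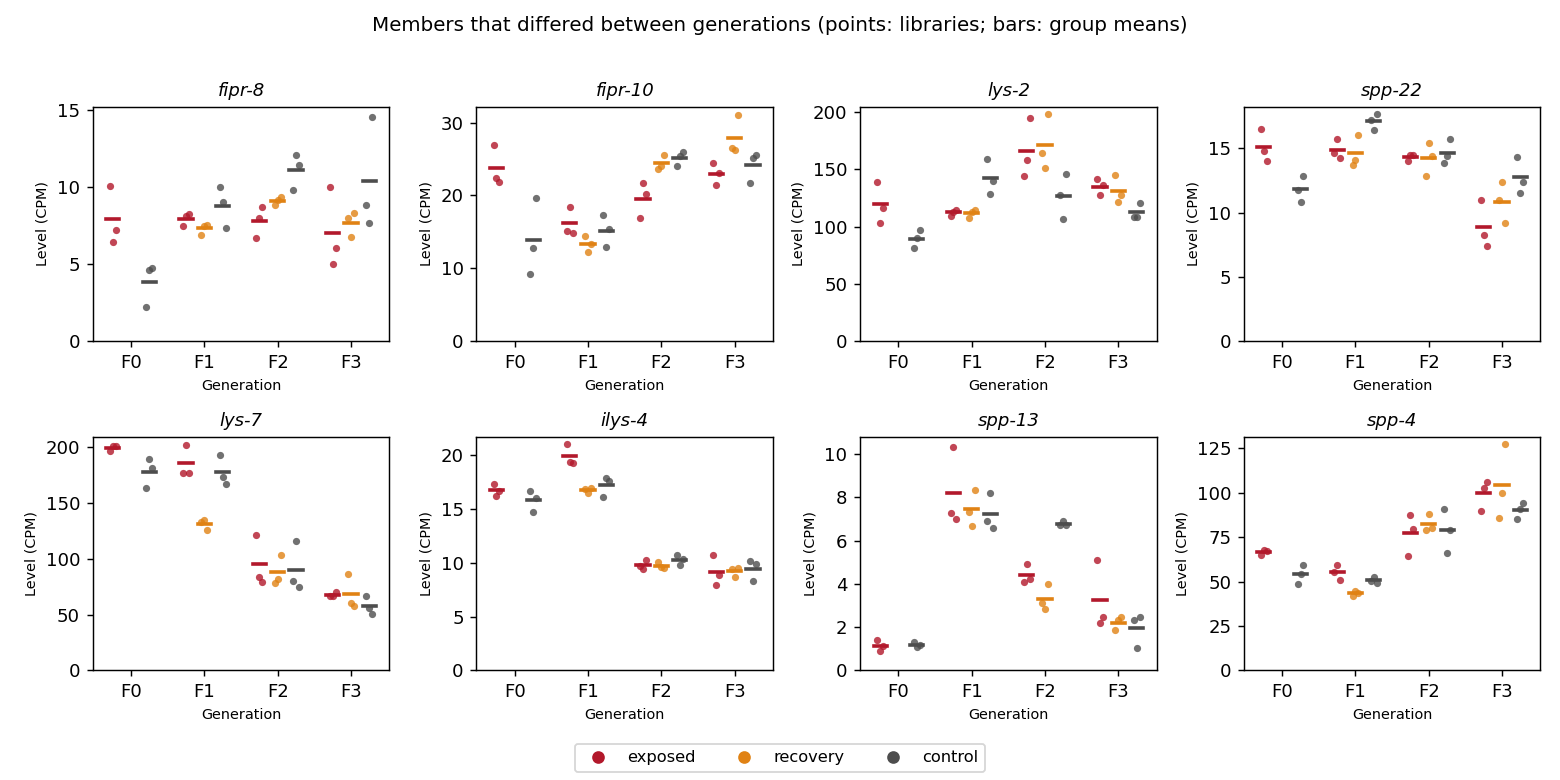
CPM in each library, by generation, for 4 members whose exposed against control difference changed among generations (fipr-8, fipr-10, lys-2, spp-22) and 4 whose controls differed (lys-7, ilys-4, spp-13, spp-4). Points are libraries (exposed red, recovery orange, control grey) and bars are group means, and lys-7 averages 178 CPM in F0 and 58.0 CPM in F3 controls.

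The neuropeptide-like gene nlp-30 averaged 3.92 ± 1.35, 11.1 ± 1.61, 13.5 ± 0.598 and 8.36 ± 3.76 CPM in F0 to F3 controls (SD, n = 3 each; adjusted p = 0.000125), highest in F2. The smallest adjusted p-values of the other groups were 5.35e-06 for fipr-3, 1.11e-05 for cnc-8 and 0.000864 for fip-2. Each of the 8 genes named here kept its call under every alternative run. In the same controls the moulting cuticle markers summed to 46.9 to 78.5 CPM in F0, 125 to 163 in F1, 163 to 218 in F2 and 50.3 to 79.0 in F3, high in F1 and F2. Generation, culture batch and exact stage cannot be told apart in these controls.

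The genes known to regulate these families were taken from 5 lists. Those called for a higher or lower level in exposed or recovery worms are given. Of all genes, 5.24% were called in F3 exposed and 2.81% in F1 recovery worms, and 6.20% as lower in F2 exposed worms. The share was 1.45% for F1 exposed against recovery, 8.29% for the exposed average and 2.89% for the recovery average. A single call in a short list is therefore not read as a change of its pathway. Of 7 genes of the p38 pathway, nsy-1 (its MAP kinase kinase kinase) and tir-1 (the adaptor above it) fell in F3 exposed worms, with log2 differences of -0.39 ± 0.10 and -0.30 ± 0.08 SE (adjusted p = 0.0178 and 0.0234). They were also lower on average over F0 to F3 (-0.19 ± 0.05 and -0.15 ± 0.04 SE, adjusted p = 0.0134 and 0.016). Of the same 7 genes skn-1 was higher in F1 exposed than in F1 recovery worms (0.33 ± 0.08 SE, adjusted p = 0.022). Of 7 DBL-1 pathway genes, the receptor gene sma-6 was lower on average in exposed worms (-0.24 ± 0.07 SE, adjusted p = 0.0194). Of 6 insulin pathway genes, the receptor gene daf-2 rose in F1 recovery worms (0.59 ± 0.14 SE, adjusted p = 0.0207). Of 9 other regulators, the intestinal GATA factor gene elt-2 rose in F3 exposed worms (0.66 ± 0.16 SE, adjusted p = 0.0156) and on average (0.35 ± 0.08 SE, adjusted p = 0.00425). The beta-catenin gene bar-1 rose in F3 exposed worms (0.60 ± 0.17 SE, adjusted p = 0.0327). The bZIP factor gene zip-2 fell in F2 exposed worms (-0.43 ± 0.11 SE, adjusted p = 0.0173) and was lower on average in exposed (-0.18 ± 0.06 SE, adjusted p = 0.0422) and recovery worms (-0.29 ± 0.06 SE, adjusted p = 0.0187). For the 11 listed regulators of the epidermal peptides, among them dcar-1, nipi-3, snf-12 and sta-2, the smallest adjusted p-value in any comparison of exposed, recovery and control worms was 0.0505.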

How the data were processed

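The deposited values are whole-number gene counts, 1 file per library, which the authors made from strand-specific paired-end reads; the submitters' processing notes name STAR and DESeq2 1.22.2, with the build and counter not given in the sources used here. Symbols, positions and exon lengths came from the Ensembl WBcel235 annotation, which held 46603 of 46778 identifiers. Members and lists were chosen with earlier results of these data known. Counts were filtered (filterByExpr over 11 groups), scaled by TMM and fitted in edgeR 4.0.16 with 1 mean per group over 33 libraries, leaving 22 residual degrees of freedom. Quasi-likelihood F-tests were adjusted by Benjamini-Hochberg over 17627 genes. CPM use TMM-scaled totals, and the SE of a log2 difference is its size divided by the root of F. The procedure was tested on simulated data.

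A member was named for a called difference among the 3 largest of its subfamily, comparison and direction, without overlap and with at least 1 CPM, for a known role, for the highest or lowest level of its subfamily, or for the smallest p among generations. All members called in the main fit are listed beside a count, except the 46 that differed among control generations, of which only some are named. Members called only under an alternative are given by number. The text on ilys-2, spp-4 in the plot by generation and the summed clusters were chosen after values were seen. Alternatives were DESeq2 size factors, no filter, DESeq2 1.42.0, a replicate block, each generation alone and leaving out each library, and, chosen after seeing the data, leaving out both libraries that stood apart.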

Additional observations from a re-analysis of the deposited data

Results flagged for a closer look

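For 11 members the difference between exposed and control worms itself differed among F0, F1, F2 and F3, by edgeR's quasi-likelihood test of 3 degrees of freedom with Benjamini-Hochberg adjustment over all genes tested. Of these, 6 were fipr genes, each above 0 in F0 and below 0 in F2. The log2 differences from F0 to F3 were 1.04, -0.14, -0.51 and -0.57 for fipr-8 (adjusted p = 0.0177) and 0.80, -0.08, -0.43 and -0.36 for fipr-7 (adjusted p = 0.0177). They were 0.78, 0.09, -0.36 and -0.07 for fipr-10 (adjusted p = 0.0184) and 0.87, -0.18, -0.58 and -0.46 for fipr-6 (adjusted p = 0.0295). For fipr-3 they were 0.74, -0.10, -0.28 and -0.01 (adjusted p = 0.0413), and for fipr-4 0.82, -0.29, -0.60 and -0.25 (adjusted p = 0.0441). The genes fipr-7, fipr-8, fipr-4 and fipr-6 lie in 1 cluster, where reads may be shared.

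The saposin-like gene spp-22 had log2 differences of 0.36, -0.20, -0.04 and -0.52 (adjusted p = 0.0184). The lysozyme genes lys-2 with 0.42, -0.34, 0.39 and 0.26 (adjusted p = 0.0184) and lys-4 with 0.23, -0.35, -0.34 and 0.18 (adjusted p = 0.0217) were both below 0 in F1. For lys-3 the differences were -0.88, 0.30, -0.03 and -1.61 (adjusted p = 0.0348), lowest in F3, and for cnc-10 they were 0.30, 0.07, -0.28 and 0.21 (adjusted p = 0.0476). The calls of lys-3, fipr-3, fipr-4, fipr-6 and cnc-10 were each lost under 6 or more of the 29 alternatives, libraries left out among them.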

How the results depend on the processing

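No direction of any called member was reversed under an alternative. The numbers in this section count members alone. The share of all genes called under each alternative is not given, so they do not compare the members with other genes. With each generation fitted alone, the number of members called in exposed against control was 0 in F0, 3 in F1, 12 in F2 and 0 in F3. In recovery against control it was 7, 5 and 0 in F1, F2 and F3, and in exposed against recovery 6 in F1 and 0 in F3. Such a fit has fewer residual degrees of freedom, yet it called more members than the main fit in some comparisons and fewer in others. DESeq2 called 1 and 11 members in F1 and F2 exposed against control, 7 and 5 in F1 and F2 recovery against control, 6 and 4 in F1 and F3 exposed against recovery, and 20 in the test of a difference among generations. Without the filter, which left more genes to adjust over, the numbers were 2 in F2 exposed against control, 1 in F2 and 1 in F3 recovery against control, 0 in F3 exposed against recovery, 2 for the recovery average and 7 for the difference among generations. Without both libraries that stood apart they were 4 in F2 and 0 in F3 recovery against control, 1 in F3 exposed against recovery and 1 for the recovery average. The cause of these shifts was not tested.

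Leaving out 1 library at a time, the numbers called for exposed against control lay between 0 and 15 in F0, 0 and 0 in F1, 0 and 9 in F2 and 3 and 11 in F3. For recovery against control they lay between 0 and 2 in F1, 0 and 4 in F2 and 0 and 7 in F3. For exposed against recovery they lay between 0 and 2 in F1, 0 and 0 in F2 and 0 and 7 in F3. The averages gave 10 to 20 for exposed and 0 to 13 for recovery worms, and the tests among generations gave 4 to 16 for exposure and 40 to 50 for the controls. Of the 57 calls with a direction 8 held under every alternative, all of them in the exposed average, as did 34 of the 46 calls among control generations.

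Taken over all groups together, same-numbered libraries did not pair. Of 165 such pairs across groups, 16 had a correlation of deviations above 0.1, with a median of -0.00257, and 10 of 33 libraries correlated best with their own number. The highest correlation, 0.333, was that of F3 exposed replicate 2 with F3 control replicate 2. In the same 2 groups it was 0.197 for replicates 1 and -0.0738 for replicates 3. With a replicate block the numbers called for exposed against control were 11, 0, 5 and 12 in F0 to F3, for recovery against control 2, 3 and 2 in F1 to F3, for exposed against recovery 2, 0 and 2, for the averages 17 and 3, and among generations 9 for exposure and 45 for the controls. With 3 libraries per group, members under about 1 CPM had wide errors, such as 0.90 (log2, SE) for ilys-3 in F3 exposed against control worms.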

Other observations

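The epidermal peptide gene nlp-33 was among the 3 most abundant members per kilobase but was called in no comparison of exposed, recovery and control worms. Its log2 differences of exposed against control were 0.20, 0.23, -0.66 and 0.08 from F0 to F3, and its level was 397 ± 145 CPM in F3 exposed and 375 ± 145 CPM in F3 control worms (SD, n = 3 each). The most abundant fipr gene, fipr-21, had log2 differences of -0.20, 0.54, -0.70 and 0.79 from F0 to F3. The tested fip and fipr genes of chromosomes III and IV were also above 0 in F0, with medians of 0.61 on III and 0.75 on IV, though no gene there was called in F0.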
